A study of Arabidopsis thaliana with 9 samples.

Results

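Chlorophyll, heme and the chromophore of phytochrome are made by 1 branched pathway, and 36 genes of that pathway were followed step by step in the RNA of dark-kept *Arabidopsis* seeds. The genes were picked by locus identifier, from *HEMA1* at the entry of the pathway to *PAO* in chlorophyll breakdown. All 36 were found among the 32830 genes of the count table, and all 36 had enough counts to be tested in every comparison. By role, 12 were genes of the early trunk up to protoporphyrin IX, 14 were genes of the chlorophyll branch, 4 were genes of the heme and bilin branch, 1 was a regulator (*FLU*) and 5 were genes of chlorophyll breakdown.

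Plants build tetrapyrroles in plastids from glutamate. Glutamyl-tRNA is reduced and turned into 5-aminolevulinic acid (ALA), and ALA is condensed into protoporphyrin IX. At that point the pathway forks: magnesium chelatase inserts magnesium and opens the route to chlorophyll, whereas ferrochelatase inserts iron and makes heme, from which phytochromobilin is derived. In flowering plants the reduction of protochlorophyllide needs light, so that seedlings kept in the dark store protochlorophyllide and do not green. Chlorophyll breakdown starts from chlorophyll b reduction and magnesium removal and ends in colourless catabolites, and in *Arabidopsis* it is best known from leaf senescence and from the degreening of ripening seeds.

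Each of 3 groups had 3 biological replicates of whole seeds. The first was AtKAI2OE, a line that overexpresses the karrikin receptor gene *AtKAI2*, without treatment, and the second was the same line with 0.5 µM KAR2, a karrikin of smoke. The labels give Col-0 as its background, and the study's methods describe the overexpressor as *35S::AtKAI2* in a *kai2* (*htl-3*) mutant of Col-0, so that a promoter active in most tissues drove the transgene. The third was the wild-type accession Ara-1 without KAR2. All seeds were plated under light of 0.3 µM m-2 s-1, imbibed in darkness at 4 °C for 4 days and left to germinate for 24 h at room temperature, still without light. No Col-0 wild type is among the libraries analysed here. Accession and transgene therefore cannot be told apart between Ara-1 and the untreated line, nor accession, transgene and treatment between Ara-1 and the treated line.

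The libraries held between 17479888 and 33306518 counts on genes. *KAI2*, checked as the overexpressed gene, was at 129 to 217 CPM (counts scaled to a common library size) in untreated AtKAI2OE, 568 to 604 CPM with KAR2 and 7.84 to 9.76 CPM in Ara-1. The seed libraries also differed in markers of seed tissue. The summed level of 6 storage genes of the embryo was 113530 to 157727 CPM in untreated AtKAI2OE, 13436 to 14680 CPM with KAR2 and 329 to 541 CPM in Ara-1. The summed level of 4 endosperm genes was 1323 to 3503, 766 to 941 and 144 to 223 CPM in the same order. That sum came nearly all from *EPR1*, with means of 2299, 860 and 167 CPM, whereas *MAN5* (6.09, 5.13 and 6.17 CPM) and *MAN7* (3.45, 4.85 and 6.42 CPM) passed in no comparison and the defining gene *ZOU* was at 0 in every library. Of 4 seed coat genes, 3 were at 0 in every library. Their sum, all from *MUM2*, was 0 to 1.36 CPM in untreated AtKAI2OE, 2.86 to 4.77 CPM with KAR2 and 3.11 to 5.54 CPM in Ara-1. *MUM2* thus moved the other way, and passed as higher in Ara-1 than in untreated AtKAI2OE (log2 fold change 2.53, edgeR adjusted p = 0.0272). The embryo storage genes and *EPR1* thus moved with the groups in the same order as the changes described here, and their part in those changes was not tested. In whole seeds, fewer cells of a type and less RNA per cell cannot be told apart.

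Most genes of chlorophyll synthesis were higher and 3 of 5 genes of its breakdown were lower after KAR2, and the differences of these genes from untreated seeds were mostly larger in Ara-1. KAR2-treated AtKAI2OE had 20 of the 36 genes higher and 5 lower than untreated AtKAI2OE, and 11 did not pass the test. Among all 17226 genes tested, 29.8% were higher and 24.0% lower (edgeR quasi-likelihood test, Benjamini-Hochberg adjusted p under 0.05). The 3 treated and 3 untreated libraries did not overlap for 28 of the 36 genes, against 65.2% of all genes. The median log2 fold change of the 36 was 0.74, beside 0.06 over all genes. By role, the chlorophyll branch had 11 of 14 genes higher and 1 lower (median 3.03), the early trunk 8 of 12 higher and 1 lower (median 0.74), the heme and bilin branch 1 of 4 higher (median 0.25), and breakdown 3 of 5 lower with none higher (median -1.81).

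Ara-1 had 21 of the 36 genes higher and 5 lower than untreated AtKAI2OE, where 37.9% of 17905 genes were higher and 31.8% lower. The libraries did not overlap for 27 of them (75.2% of all genes). The median log2 fold change was 1.38 (0.16 over all genes). The chlorophyll branch had 13 of 14 genes higher and 1 lower (median 4.21), and breakdown had 3 of 5 lower (median -2.80). Against KAR2-treated AtKAI2OE, Ara-1 had 17 of the 36 higher and 10 lower, where 30.1% of 17978 genes were higher and 32.2% lower, and 28 did not overlap (69.7% of all genes). The median was 0.32 (-0.01 over all genes). The chlorophyll branch had 10 of 14 higher and 2 lower (median 1.02), and breakdown had 4 of 5 lower (median -1.52). The 3 comparisons share their libraries and are not independent of each other.

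**Figure D1:**
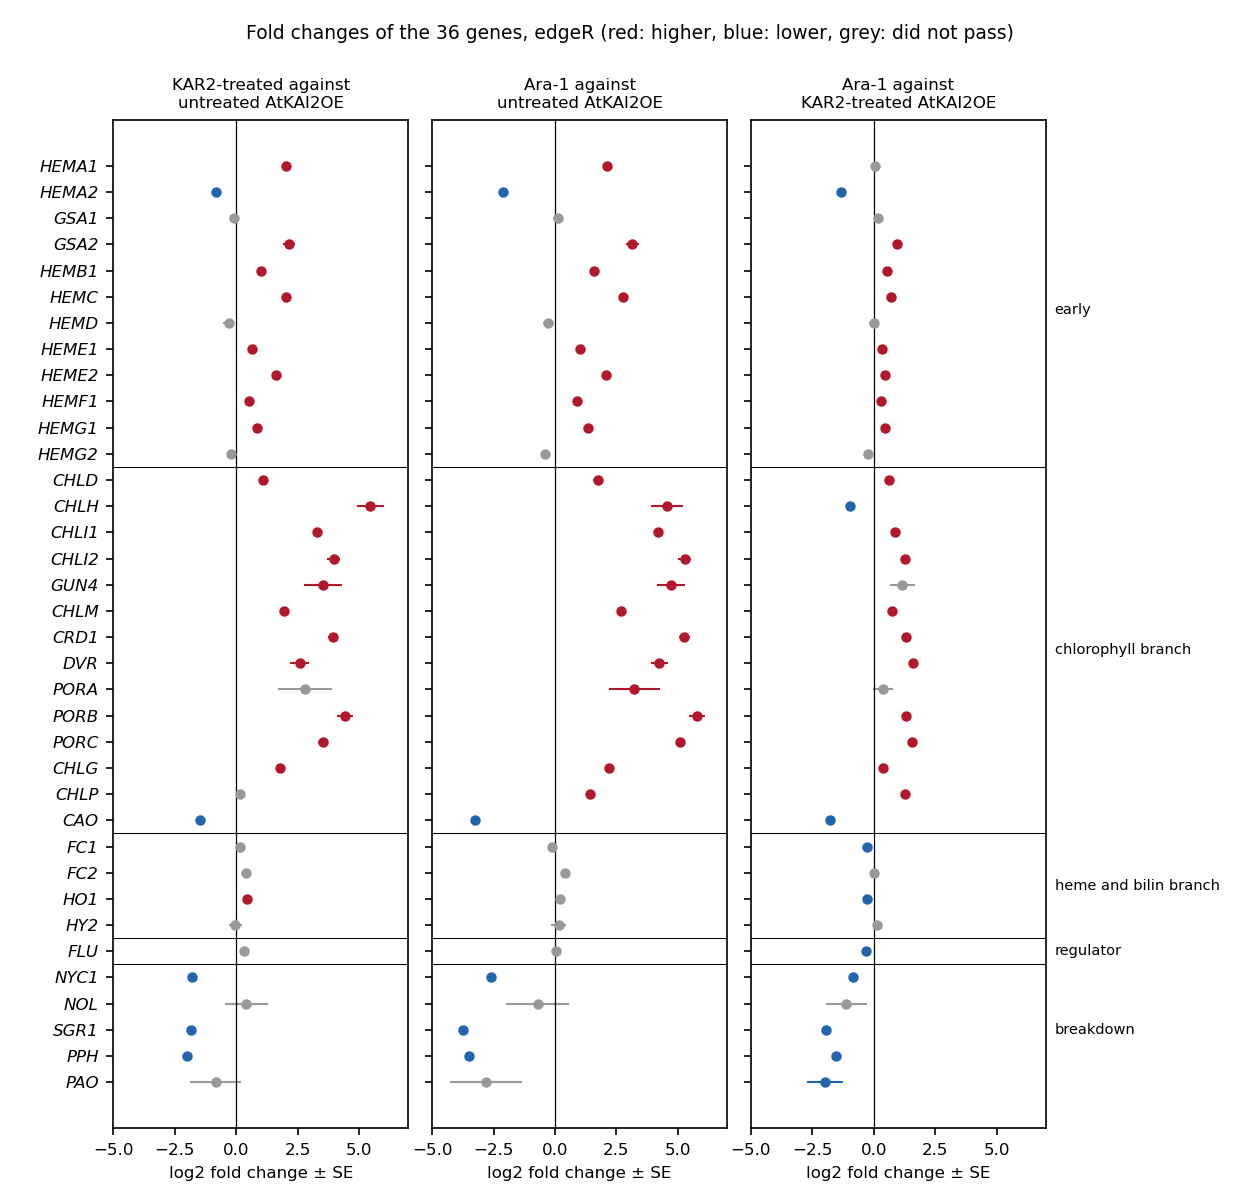
Log2 fold change (± SE) of each of the 36 genes in the 3 comparisons, from edgeR, with genes in the order of the pathway; red points passed the test as higher, blue as lower and grey did not pass. The chlorophyll branch lies right of 0 in the left panel for 11 red points, with *CAO* as the blue exception, and the breakdown genes *NYC1*, *SGR1* and *PPH* lie left of 0 in all 3 panels.

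Levels followed the order untreated, KAR2-treated, Ara-1 for 21 of the 36 genes by their group means, where 38.8% of 18271 genes rose in that order. The share was uneven between roles, since 12 of 14 genes of the chlorophyll branch and 8 of 12 of the trunk took this order, and 4 of the 5 breakdown genes took the reverse order. A total of 7 of the 36 fell in that order, against 33.3% of all genes. With a pass required in each comparison, 16 genes were higher in all 3 comparisons (17.7% of 16792 genes) and 5 were lower in all 3 (17.8%). The 16 were *GSA2*, *HEMB1*, *HEMC*, *HEME1*, *HEME2*, *HEMF1*, *HEMG1*, *CHLD*, *CHLI1*, *CHLI2*, *CHLM*, *CRD1*, *DVR*, *PORB*, *PORC* and *CHLG*, and the 5 were *HEMA2*, *CAO*, *NYC1*, *SGR1* and *PPH*.

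**Figure D2:**
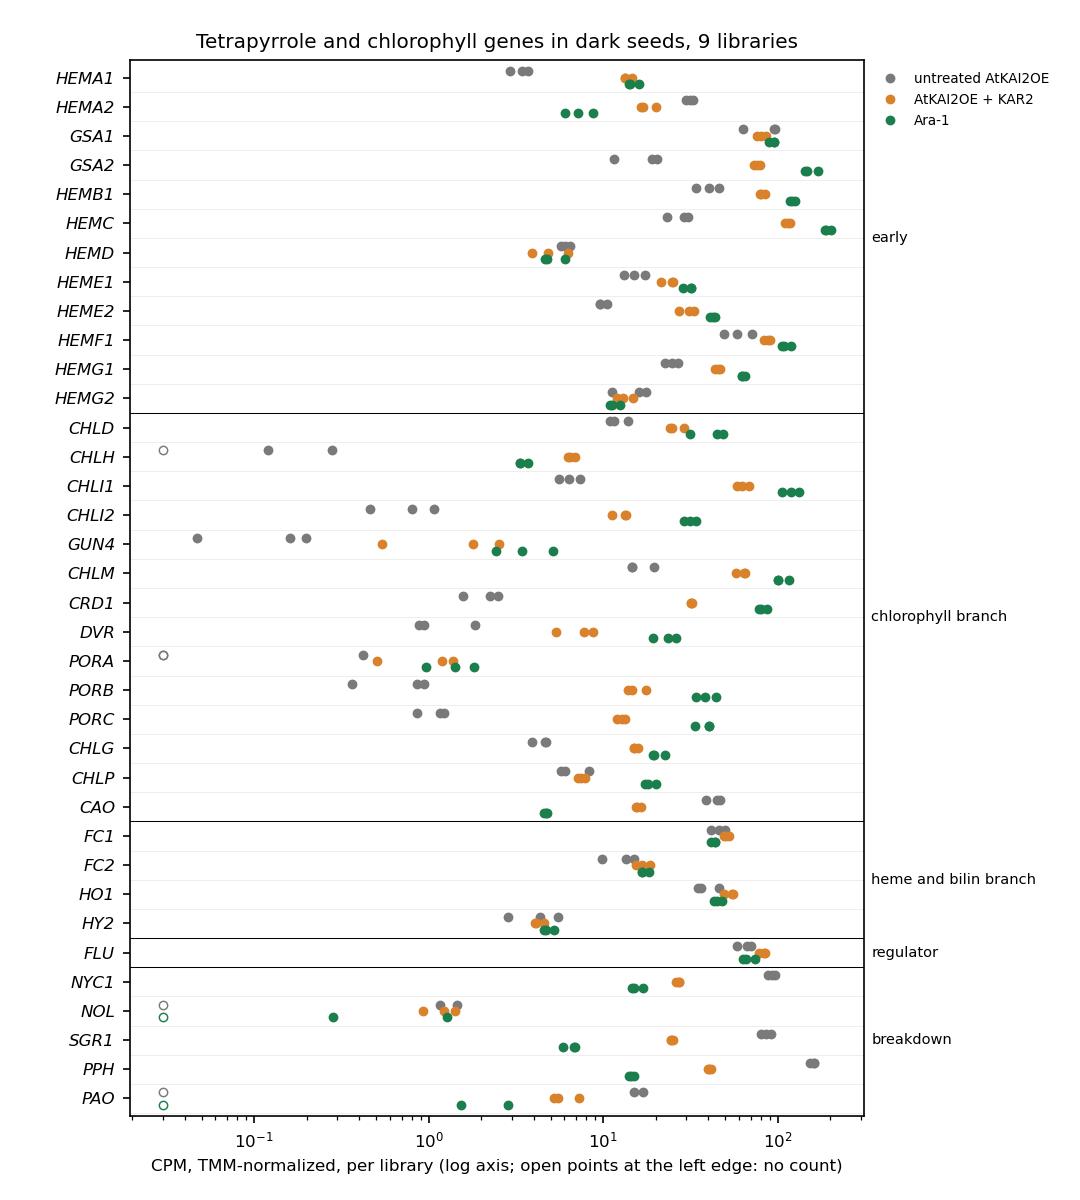
TMM-normalized CPM of the 36 genes in each of the 9 libraries on a log axis, with genes in the order of the pathway; points are single libraries and open points at the left edge are libraries without a count. *CRD1* runs from 1.57 to 2.51 CPM in untreated AtKAI2OE (grey) to 77.9 to 86.98 CPM in Ara-1 (green), while *PPH* runs the other way, from 154 to 163 CPM down to 14.2 to 15.01 CPM.

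Glutamyl-tRNA reductase, the step that commits glutamate to ALA, shifted between its isogenes rather than rising as a whole. *HEMA1* (AT1G58290, chromosome 1, 21623700 to 21626402 in TAIR10.1), the isogene known to respond to light, had 2.91, 3.69 and 3.42 CPM in the untreated libraries. With KAR2 it had 13.4, 14.6 and 13.4 CPM and in Ara-1 16.1, 14.1 and 14.3 CPM. It was thus 4.05-fold higher with KAR2 (log2 fold change 2.02, SE 0.15, edgeR adjusted p = 7.26e-05), and Ara-1 and treated libraries overlapped (0.06, SE 0.10, adjusted p = 0.58). *HEMA2* (AT1G09940, chromosome 1, 3236908 to 3239554), the isogene that is better known from non-green tissue, went down from 30.0, 31.5 and 32.6 CPM to 16.6, 17.02 and 20.1 CPM with KAR2 and stood at 8.75, 7.19 and 6.06 CPM in Ara-1. Its log2 fold change was -0.83 (SE 0.12, adjusted p = 0.00129) for KAR2 against untreated and -2.13 (SE 0.16, adjusted p = 2.87e-05) for Ara-1 against untreated.
Divided by exon length, the share of *HEMA1* in the sum of the isogenes was 9.20 ± 0.800% in untreated AtKAI2OE, 42.5 ± 3.25% with KAR2 and 66.0 ± 2.89% in Ara-1 (SD, n = 3). The 3 groups did not overlap in this share. The exact two-sided permutation test gave p = 0.1 in each comparison, which is the smallest p that 3 against 3 libraries allow. The sum itself was 15.7 ± 0.710, 14.1 ± 0.803 and 9.76 ± 1.04 CPM per kb in the same order. The committing step was therefore lower in summed level in Ara-1 while most later steps were higher.

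At the next step 1 gene of the pair rose and the sum rose with it. Glutamate-1-semialdehyde aminotransferase makes ALA. *GSA1* (AT5G63570) had 96.1, 63.7 and 95.2 CPM in untreated seeds, 80.9, 85.6 and 75.9 CPM with KAR2 and 95.6, 89.8 and 95.9 CPM in Ara-1, and it did not pass in any comparison (adjusted p = 0.665, 0.611 and 0.069 from edgeR for KAR2 against untreated, Ara-1 against untreated and Ara-1 against KAR2). Without untreated replicate 2, its lowest library, *GSA1* was lower with KAR2 (log2 fold change -0.30, adjusted p = 0.0371). *GSA2* (AT3G48730) had 20.5, 11.5 and 19.2 CPM, then 79.4, 73.3 and 76.7 CPM with KAR2, and 143, 147 and 171 CPM in Ara-1. It was 4.42-fold higher with KAR2 (log2 fold change 2.14, SE 0.23, adjusted p = 0.000291) and 8.86-fold higher in Ara-1 than in untreated seeds (3.15, SE 0.26, adjusted p = 3.71e-05). The share of *GSA1* in the step was 82.0 ± 1.26% in untreated seeds, 48.8 ± 2.21% with KAR2 and 35.7 ± 2.04% in Ara-1, without overlap between the groups (exact permutation p = 0.1 in each comparison, the smallest possible).

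Through the rest of the trunk, ALA is joined into porphobilinogen, polymerized and closed into a ring, then decarboxylated and oxidized to protoporphyrin IX. The strongest change in these steps was in *HEMC* (AT5G08280, chromosome 5, 2663499 to 2665826), which encodes porphobilinogen deaminase. It had 29.2, 23.3 and 30.7 CPM in untreated seeds, 118, 110.0 and 114 CPM with KAR2 and 188, 189 and 202 CPM in Ara-1. These amount to log2 fold changes of 2.02 (SE 0.14, adjusted p = 5.74e-05) for KAR2 and 2.77 (SE 0.16, adjusted p = 9.44e-06) for Ara-1 against untreated. *HEMB1* (AT1G69740), for ALA dehydratase, had a group mean of 40.1 ± 6.18 CPM in untreated seeds, 81.5 ± 2.59 CPM with KAR2 and 122 ± 4.48 CPM in Ara-1. *HEMD* (AT2G26540), for uroporphyrinogen III synthase, closes the ring and had the lowest level per kb of the trunk's steps (3.56 CPM per kb in untreated seeds), with 5.76 to 6.42 CPM in untreated seeds, 3.92 to 6.26 CPM with KAR2 and 4.64 to 6.08 CPM in Ara-1. Its log2 fold changes were -0.31 (SE 0.22, adjusted p = 0.272) with KAR2 and -0.27 (SE 0.21, adjusted p = 0.284) in Ara-1 against untreated, so that the libraries overlapped at this step, which lies between steps that were higher.
Uroporphyrinogen III decarboxylase has the isogenes *HEME1* (AT3G14930) and *HEME2* (AT2G40490). *HEME1* went from 15.1 ± 2.09 CPM in untreated seeds to 23.8 ± 1.97 CPM with KAR2 and 30.8 ± 1.92 CPM in Ara-1, and *HEME2* from 9.94 ± 0.564 to 30.5 ± 3.01 and 42.6 ± 1.44 CPM. Both passed as higher in all 3 comparisons, although *HEME1* in Ara-1 against KAR2 (log2 fold change 0.33, adjusted p = 0.0136) did not without treated replicate 3 (adjusted p = 0.0612). Their balance moved as well, since *HEME1* held 53.5 ± 2.34% of the step in untreated seeds, 37.3 ± 4.09% with KAR2 and 35.5 ± 0.728% in Ara-1. The share overlapped between treated AtKAI2OE and Ara-1 (exact permutation p = 0.5).

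*HEMF1* (AT1G03475), for coproporphyrinogen III oxidase, had 58.6, 49.5 and 71.4 CPM in untreated seeds, 90.8, 88.5 and 83.9 CPM with KAR2 and 106, 109.5 and 119 CPM in Ara-1. Its rise with KAR2 was among the smallest that passed (log2 fold change 0.53, SE 0.14, adjusted p = 0.0158), and it did not pass without treated replicate 1 (adjusted p = 0.0647) or treated replicate 2 (adjusted p = 0.0564). With all 9 libraries in a single fit, *HEMF1* did not pass in Ara-1 against KAR2 (0.35, adjusted p = 0.0665). Protoporphyrinogen IX oxidase was carried by *HEMG1* (AT4G01690), which went from 24.8 ± 2.16 to 45.5 ± 1.56 CPM with KAR2 and 63.4 ± 1.71 CPM in Ara-1. *HEMG2* (AT5G14220) had 11.3, 16.1 and 17.7 CPM in untreated seeds, 14.7, 11.96 and 13.02 CPM with KAR2 and 12.5, 11.2 and 10.98 CPM in Ara-1, with overlap in each comparison and a log2 fold change of -0.40 (SE 0.18, adjusted p = 0.0822) in Ara-1 against untreated. Without untreated replicate 1, *HEMG2* passed as lower with KAR2 (-0.38, adjusted p = 0.0452) and in Ara-1 (-0.61, adjusted p = 0.00952). The share of *HEMG1* was 72.4 ± 2.97% in untreated seeds, 84.3 ± 1.25% with KAR2 and 89.6 ± 0.412% in Ara-1, without overlap (exact permutation p = 0.1 in each comparison).

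**Figure D3:**
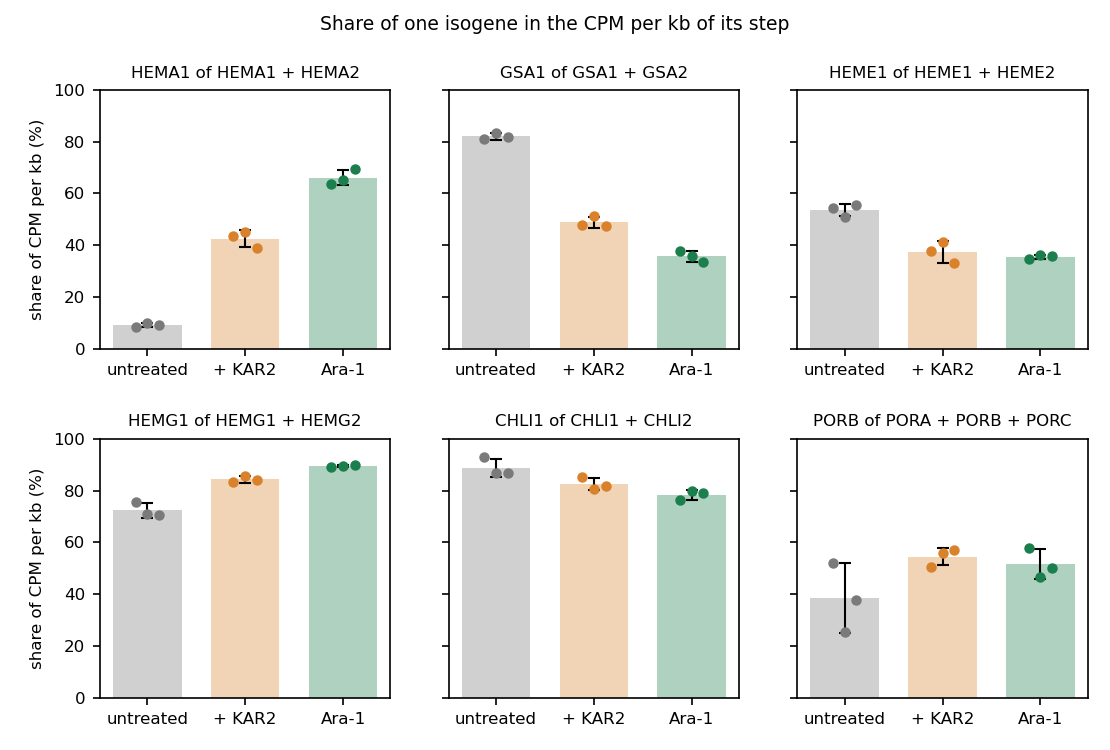
Share of 1 isogene in the summed CPM per kb of its step, in percent, with bars for the mean of 3 libraries, error bars for the SD and points for single libraries. The mean share of *HEMA1* goes from 9.20% in untreated AtKAI2OE to 42.5% with KAR2 and 66.0% in Ara-1. That of *GSA1* goes from 82.0% to 48.8% and 35.7%, whereas the share of *PORB* overlaps between all groups.

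At the fork toward chlorophyll, magnesium chelatase was where the subunits parted. The enzyme is built from the subunits CHLI, CHLD and CHLH, of which CHLH binds the porphyrin, and GUN4 stimulates it. *CHLI1* (AT4G18480, chromosome 4, 10201672 to 10203469) had 6.42, 5.62 and 7.36 CPM in untreated seeds, 68.3, 58.7 and 62.9 CPM with KAR2 and 106, 120.2 and 133 CPM in Ara-1. It was 9.66-fold higher with KAR2 (log2 fold change 3.27, SE 0.14, adjusted p = 2.41e-05) and 18.2-fold higher in Ara-1 than in untreated seeds (4.19, SE 0.18, adjusted p = 3.95e-06). *CHLI2* (AT5G45930) was low in untreated seeds, at 0.463, 0.803 and 1.08 CPM, and had 11.2, 13.4 and 13.5 CPM with KAR2 and 31.4, 29.1 and 33.9 CPM in Ara-1. Its log2 fold change was 3.96 (SE 0.26, adjusted p = 5.27e-05) with KAR2 and 5.27 (SE 0.26, adjusted p = 5.38e-06) in Ara-1 against untreated. The share of *CHLI1* in the CHLI pair went from 88.9 ± 3.55% through 82.6 ± 2.40% to 78.3 ± 1.84%, again without overlap (exact permutation p = 0.1 in each comparison). *CHLD* (AT1G08520) rose less, from 12.1 ± 1.52 CPM in untreated seeds to 28.9, 24.3 and 24.8 CPM with KAR2 and 31.3, 45.0 and 48.4 CPM in Ara-1 (log2 fold change 1.07, SE 0.15, adjusted p = 0.000848 with KAR2).

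*CHLH* (AT5G13630, chromosome 5, 4387307 to 4392429) had next to no reads in untreated seeds, with 0, 3 and 6 counts. It had 196, 153 and 203 counts with KAR2 and 59, 123 and 132 counts in Ara-1, which are 6.33, 6.45 and 6.86 CPM and 3.33, 3.34 and 3.74 CPM. The log2 fold change of *CHLH* with KAR2 was 5.45 (SE 0.55, adjusted p = 0.000231). This value rests on 9 untreated counts in all and ran from 4.996 to 6.33 with 1 library left out. It was the only gene that was higher than untreated in both other groups and yet lower in Ara-1 than with KAR2 (log2 fold change -0.95, SE 0.12, adjusted p = 0.000352). With all 9 libraries in a single fit that last difference did not pass (-0.91, adjusted p = 0.0519). Per kb of exon, *CHLH* reached 1.38 CPM with KAR2 and 0.73 CPM in Ara-1, where *CHLI1* had 39.4 and 74.5 CPM and *CHLD* 9.84 and 15.7 CPM. The large subunit was therefore the scarcest of the chelatase transcripts in every group.
*GUN4* (AT3G59400) had 3, 4 and 1 counts in untreated seeds, 56, 60 and 16 counts with KAR2 and 43, 126 and 182 counts in Ara-1. It passed as higher in both groups against untreated (log2 fold changes 3.54, SE 0.78, adjusted p = 0.00728 and 4.73, SE 0.58, adjusted p = 0.000253). An exon of AT3G59410 on the other strand covers 73.0% of the exon bases of *GUN4*, and the sources used here do not say on which strand reads were counted. Reads of the pair are therefore not told apart.

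Past the chelatase, each step on the route to chlorophyllide had a gene that was higher in all 3 comparisons. *CHLM* (AT4G25080), the methyltransferase that follows, went from 16.2 ± 2.89 to 62.4 ± 3.94 CPM with KAR2 and 106 ± 9.44 CPM in Ara-1 (log2 fold change 1.92, SE 0.14, adjusted p = 6.38e-05 with KAR2). *CRD1* (AT3G56940, chromosome 3, 21076505 to 21078443), for a subunit of the cyclase that closes the fifth ring, had 2.51, 1.57 and 2.25 CPM in untreated seeds. It had 32.0, 32.4 and 31.8 CPM with KAR2 and 80.2, 77.9 and 86.98 CPM in Ara-1. It was thus 15.1-fold higher with KAR2 (log2 fold change 3.92, SE 0.20, adjusted p = 2.66e-05), 38.4-fold higher in Ara-1 than in untreated seeds (5.26, SE 0.22, adjusted p = 3.74e-06) and 2.48-fold higher in Ara-1 than with KAR2 (1.31, SE 0.07, adjusted p = 4.88e-06). *DVR* (AT5G18660), for divinyl reductase, had 1.85, 0.883 and 0.937 CPM, then 8.75, 5.39 and 7.74 CPM with KAR2 and 19.4, 23.5 and 26.03 CPM in Ara-1. Its log2 fold change in Ara-1 against KAR2-treated AtKAI2OE was 1.62 (SE 0.19, adjusted p = 0.000191).

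Protochlorophyllide oxidoreductase (POR) is the enzyme that needs light, and seedlings grown in the dark are known to hold mostly PORA and PORB. In these dark seeds *PORB* and *PORC* carried the step and *PORA* was scarce. *PORB* (AT4G27440, chromosome 4, 13725546 to 13727440) had 0.860, 0.361 and 0.937 CPM in untreated seeds, 13.8, 14.6 and 17.5 CPM with KAR2 and 44.1, 34.2 and 38.3 CPM in Ara-1. Its log2 fold change was 5.76 (SE 0.33, adjusted p = 7.93e-06) in Ara-1 against untreated, and 4.42 (SE 0.33, adjusted p = 7.32e-05) with KAR2. *PORC* (AT1G03630, chromosome 1, 907523 to 909650), which in seedlings is known as the isogene of light-grown tissue, had 0.860, 1.16 and 1.22 CPM, then 13.4, 12.01 and 12.8 CPM with KAR2 and 33.5, 40.6 and 40.4 CPM in Ara-1. It was 11.5-fold higher with KAR2 (log2 fold change 3.52, SE 0.18, adjusted p = 2.66e-05).
*PORA* (AT5G54190) had 0, 0 and 9 counts in untreated seeds, 37, 12 and 41 with KAR2 and 25, 67 and 34 in Ara-1. Its log2 fold change was 2.79 (SE 1.104, adjusted p = 0.0678) with KAR2, short of the threshold, and 3.22 (SE 1.04, adjusted p = 0.0257) in Ara-1 against untreated. The latter call was lost without untreated replicate 1 or 2 or any of the Ara-1 replicates (adjusted p from 0.0513 to 0.0865). Over the 3 genes the step summed to 1.13 ± 0.335 CPM per kb in untreated seeds, 17.1 ± 1.46 with KAR2 and 45.9 ± 1.08 in Ara-1. *PORA* held 3.57 ± 1.43% of that with KAR2 and 1.84 ± 0.604% in Ara-1. The share of *PORB* was 38.4 ± 13.4%, 54.5 ± 3.45% and 51.6 ± 5.72% and overlapped between the groups.

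The last steps differed between the ring and its tail. *CHLG* (AT3G51820), for chlorophyll synthase, which joins chlorophyllide and the phytyl tail, went from 4.42 ± 0.425 to 15.2 ± 0.484 CPM with KAR2 and 20.5 ± 1.80 CPM in Ara-1, higher in all 3 comparisons. *CHLP* (AT1G74470), for the geranylgeranyl reductase that makes the tail, had 6.02, 5.74 and 8.34 CPM in untreated seeds, 7.16, 7.92 and 7.51 CPM with KAR2 and 17.4 to 20.03 CPM in Ara-1. It did not pass with KAR2 (log2 fold change 0.15, SE 0.17, adjusted p = 0.492), and it was higher in Ara-1 than in either of the other groups (1.44, SE 0.18, adjusted p = 0.000262 and 1.26, SE 0.10, adjusted p = 2.98e-05). A neighbour on the other strand shares 16.2% of its exon bases.
*CAO* (AT1G44446, chromosome 1, 16848308 to 16851271), for chlorophyllide a oxygenase, the enzyme that makes chlorophyll b, moved against the rest of its branch. It had 39.03, 46.8 and 45.0 CPM in untreated seeds, 15.4, 16.5 and 15.6 CPM with KAR2 and 4.797, 4.56 and 4.73 CPM in Ara-1. The groups were apart in each comparison, with log2 fold changes of -1.49 (SE 0.11, adjusted p = 8.11e-05) for KAR2 against untreated, -3.24 (SE 0.14, adjusted p = 3.95e-06) for Ara-1 against untreated and -1.79 (SE 0.10, adjusted p = 4.13e-06) for Ara-1 against KAR2.

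**Figure D4:**
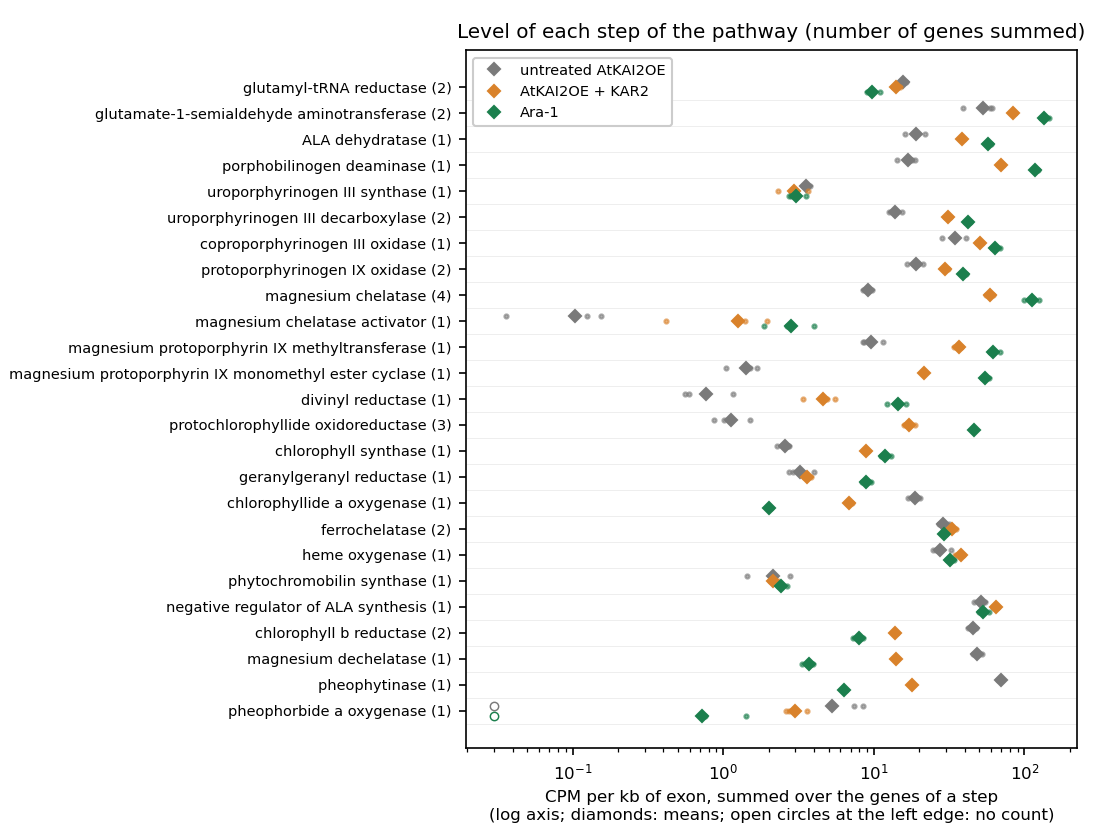
Level of each step as CPM per kb of exon, summed over its genes (their number in parentheses), on a log axis; diamonds are means of 3 libraries, small points single libraries and open circles libraries without a count. Magnesium chelatase goes from 9.14 to 58.9 and 111 CPM per kb and the cyclase from 1.41 to 21.5 and 54.7, while glutamyl-tRNA reductase, chlorophyllide a oxygenase and the breakdown steps lie lowest in Ara-1.

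*CRD1* and *CAO*, which moved in opposite directions within the branch, both carry the G-box CACGTG before their annotated start. The G-box is a core element bound in plants by bHLH factors such as the phytochrome-interacting factors and by bZIP factors such as HY5. It was present on either strand in the 250 bases before the start of 6 of the 36 genes (16.7%), where 6.49% of the same windows of 27443 protein-coding genes held it. The 6 were *HEMD*, *CRD1*, *CAO*, *FC2*, *HY2* and *NOL*. In *FC2* and *NOL* the G-box lies in the last 100 bases before the start. That stretch overlaps another annotated gene in each (AT2G30395 and AT5G04895). The last 100 bases before the start are shown for *CRD1*, *CAO* and *HY2*, from the TAIR10.1 genome of RefSeq, 5′ to 3′ on the strand of the gene, with the G-box in capitals:
CRD1 (chr3:21076405-21076504, plus strand): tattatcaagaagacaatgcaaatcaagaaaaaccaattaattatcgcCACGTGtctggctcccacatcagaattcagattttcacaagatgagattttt
CAO (chr1:16851272-16851371, minus strand): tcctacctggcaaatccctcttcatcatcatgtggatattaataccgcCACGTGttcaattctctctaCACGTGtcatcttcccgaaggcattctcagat
HY2 (chr3:2803428-2803527, plus strand): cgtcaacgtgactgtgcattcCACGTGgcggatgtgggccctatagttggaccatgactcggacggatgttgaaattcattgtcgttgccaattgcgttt
In *CRD1* the element begins 52 bases before the start, and *CAO* has it at 52 and again at 32 bases. Among the 6 genes with a G-box, *CRD1* was higher and *CAO* lower in all 3 comparisons, and *HEMD*, *FC2*, *HY2* and *NOL* passed in none. The element was thus present before a gene that rose and a gene that fell. A further 3 motifs were searched on both strands in the same windows. CCAATC was in 8.33% of the member windows (10.2% of all), GATAAG in 5.56% (12.3% of all) and the evening element AAAATATCT, in *PORA*, *PORB* and *NYC1*, in 8.33% (2.36% of all). A match of letters is no evidence of binding.

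In the heme and bilin branch, 1 of 4 genes was higher with KAR2 (29.8% of all genes). None passed in Ara-1 against untreated (37.9% of all genes higher and 31.8% lower). Of the 4, 2 were lower in Ara-1 than with KAR2 (32.2% of all genes). *FC1* (AT5G26030) and *FC2* (AT2G30390) encode ferrochelatase, which makes heme. *FC1* had 46.4, 41.5 and 49.7 CPM in untreated seeds, 53.0, 50.8 and 49.2 CPM with KAR2 and 43.7, 41.4 and 43.8 CPM in Ara-1, and passed only as lower in Ara-1 than with KAR2 (log2 fold change -0.28, SE 0.07, adjusted p = 0.00861). That call was lost with all 9 libraries in a single fit (-0.25, adjusted p = 0.0824). With scaling by library size only, *FC1* passed as higher with KAR2 than untreated (0.53, adjusted p = 0.00539). *FC2* had 9.86, 13.6 and 15.1 CPM, then 18.5, 15.4 and 16.7 CPM with KAR2 and 18.3, 16.7 and 16.8 CPM in Ara-1. It missed the threshold against untreated with KAR2 (0.37, SE 0.16, adjusted p = 0.0937) and in Ara-1 (0.40, SE 0.17, adjusted p = 0.0671). *FC2* passed as higher in both when every library had to hold 10 counts or more (adjusted p = 0.0468 and 0.0377) and with scaling by library size only (adjusted p = 0.0157 and 0.0130), and in Ara-1 also with all 9 libraries in a single fit (adjusted p = 0.0386). The share of *FC1* in the step was 77.9 ± 3.81%, 74.8 ± 1.36% and 71.0 ± 0.965%.
*HO1* (AT2G26670, also called *HY1*), for the heme oxygenase that opens heme into biliverdin, had 34.9, 36.5 and 45.9 CPM in untreated seeds, 55.1, 55.6 and 49.3 CPM with KAR2 and 45.3, 43.2 and 48.0 CPM in Ara-1. It was higher with KAR2 (log2 fold change 0.43, SE 0.12, adjusted p = 0.0222), a call that was lost without any of the treated replicates, without untreated replicate 1 or 2 (adjusted p from 0.0529 to 0.0875) and when the replicate number entered the fit as a block (adjusted p = 0.0739). *HO1* was lower in Ara-1 than with KAR2 (-0.27, SE 0.08, adjusted p = 0.0214). That call was lost without Ara-1 replicate 1 or 2 or treated replicate 1 or 2 (adjusted p from 0.0511 to 0.0924). *HY2* (AT3G09150), for phytochromobilin synthase, which makes the chromophore of phytochrome, had 2.86 to 5.50 CPM in untreated seeds, 4.04 to 4.56 CPM with KAR2 and 4.56 to 5.21 CPM in Ara-1 and passed in none of the comparisons. Summed over the branch, the 4 genes had 102 ± 9.99 CPM in untreated seeds, 125 ± 5.48 CPM with KAR2 and 111 ± 3.49 CPM in Ara-1. The 14 genes of the chlorophyll branch summed to 95.9 ± 7.60, 280 ± 6.98 and 533 ± 41.6 CPM in the same groups.

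*FLU* (AT3G14110) encodes a protein that holds back ALA synthesis in the dark by binding glutamyl-tRNA reductase. It had 66.6, 58.8 and 70.0 CPM in untreated seeds, 83.8, 85.3 and 78.2 CPM with KAR2 and 65.6, 63.7 and 74.2 CPM in Ara-1. The treated libraries lay above the other groups. The log2 fold change with KAR2 was 0.32 (SE 0.11, adjusted p = 0.0506), just short of the threshold, which it passed in DESeq2 (adjusted p = 0.0358), and *FLU* was lower in Ara-1 than with KAR2 (-0.32, SE 0.08, adjusted p = 0.0109, and 0.0528 without Ara-1 replicate 2).

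In chlorophyll breakdown, 3 of the 5 genes fell in all 3 comparisons, as did 17.8% of the 16792 genes tested in all 3. *NYC1* (AT4G13250, chromosome 4, 7684156 to 7687006) reduces chlorophyll b, *SGR1* (AT4G22920, chromosome 4, 12016420 to 12018643) takes magnesium from chlorophyll a, and *PPH* (AT5G13800, chromosome 5, 4451733 to 4454813) removes the phytyl tail. *PPH* had 162, 154 and 163 CPM in untreated seeds, 40.0, 40.7 and 41.7 CPM with KAR2 and 15.01, 14.2 and 14.5 CPM in Ara-1. *SGR1* had 92.3, 85.7 and 79.9 CPM, then 24.7, 24.6 and 25.02 CPM with KAR2 and 5.93, 6.92 and 6.79 CPM in Ara-1. *NYC1* had 87.7, 97.3 and 92.8 CPM, then 27.2, 26.2 and 27.3 CPM with KAR2 and 15.1, 14.7 and 16.98 CPM in Ara-1.
The replicates of these genes lay close together, and no group overlapped another. Most genes tested did not overlap either: 65.2% for KAR2 against untreated, 75.2% for Ara-1 against untreated and 69.7% for Ara-1 against KAR2. With KAR2 they were 3.98-, 3.54- and 3.50-fold lower in the order *PPH*, *SGR1*, *NYC1* (log2 fold changes -1.99, SE 0.11, adjusted p = 3.12e-05; -1.82, SE 0.13, adjusted p = 6e-05; -1.81, SE 0.11, adjusted p = 3.72e-05). In Ara-1 they were 11.2-, 13.4- and 6.05-fold lower than in untreated AtKAI2OE (log2 fold changes -3.48, SE 0.14, adjusted p = 3.37e-06; -3.74, SE 0.17, adjusted p = 4.29e-06; -2.60, SE 0.14, adjusted p = 7.34e-06). The count table holds *NYC1* in 2 entries that did not move alike. The entry named by the gene had 1278, 2389 and 1914 counts in untreated seeds, 415, 329 and 552 with KAR2 and 80, 221 and 221 in Ara-1, whereas an entry of merged transcripts had 48, 34 and 67, then 428, 292 and 255, and 187, 322 and 379 counts. With the larger entry alone, the log2 fold changes of *NYC1* were -2.58 (adjusted p = 9.43e-05) with KAR2 and -4.06 (adjusted p = 1.08e-05) in Ara-1 against untreated. The order of the 3 genes by their fall against untreated thus depends on the entries used. *NYC1* is last there when its entries are summed and first with its larger entry alone. In Ara-1 against KAR2 its log2 fold change was -0.82 (SE 0.08, adjusted p = 0.000103) summed and -1.48 (adjusted p = 0.000559) with the larger entry. Both were smaller falls than the -1.52 of *PPH* and the -1.95 of *SGR1* with entries summed.

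*PAO* (AT3G44880), which opens the ring of pheophorbide a, had 0, 423 and 320 counts in untreated seeds, 170, 173 and 155 with KAR2 and 0, 105 and 54 in Ara-1. The 0 stood in the untreated and the Ara-1 library numbered 1, and its cause was not tested. With these libraries the log2 fold change was -0.85 (SE 1.05, adjusted p = 0.524) for KAR2 and -2.80 (SE 1.46, adjusted p = 0.124) for Ara-1 against untreated. Without untreated replicate 1 it was -1.45 (adjusted p = 0.000951) with KAR2, and without both libraries numbered 1 it was -2.87 (adjusted p = 0.00127) in Ara-1, so that the call rests on these libraries. In Ara-1 against KAR2 it passed as lower (-1.97, SE 0.73, adjusted p = 0.0471), which was lost without Ara-1 replicate 3 or any treated replicate (adjusted p from 0.0910 to 0.131). The call was also lost with DESeq2 (adjusted p = 0.230), all 9 libraries in a single fit (0.216), library size only (0.0618) and no count filter (0.0561). Nor did it hold with only the entry with the most counts (0.0821) or unnamed entries in the library total (0.0694). *NOL* (AT5G04900), the partner of *NYC1* in chlorophyll b reduction, also had 0 counts in the untreated and the Ara-1 library numbered 1. It had 29 and 31 counts in the other untreated libraries, 38, 22 and 42 with KAR2 and 47 and 10 in the other Ara-1 libraries. *NOL* passed in none of the comparisons. It passed as lower in Ara-1 than with KAR2 without Ara-1 replicate 2 (adjusted p = 0.0238).
Over its 5 genes, breakdown summed to 350 ± 7.00 CPM in untreated seeds, 99.6 ± 1.07 CPM with KAR2 and 38.7 ± 2.33 CPM in Ara-1. In untreated AtKAI2OE this was above the 95.9 ± 7.60 CPM of the chlorophyll branch, and in both other groups it was below it. The sums are not divided by gene length and cover 5 and 14 genes. *CAO* alone held 43.6 CPM of the chlorophyll branch sum in untreated seeds and 4.69 CPM in Ara-1.

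A further 26 genes of tetrapyrrole metabolism, outside the 36, moved in both directions. With KAR2, 9 of the 18 that could be tested were higher and 8 lower (29.8% and 24.0% of all genes). In Ara-1, 13 of 21 were higher and 8 lower than in untreated AtKAI2OE (37.9% and 31.8% of all genes). Against KAR2-treated AtKAI2OE, 8 of 21 were higher and 8 lower in Ara-1 (30.1% and 32.2% of all genes). Of those lower with KAR2, *SGR2* (AT4G11910), a paralog of *SGR1*, went from 129, 128 and 136 CPM to 37.1, 32.9 and 34.9 CPM and to 9.37, 9.28 and 9.62 CPM in Ara-1 (log2 fold changes -1.93 and -3.83 against untreated, adjusted p = 3.46e-05 and 2.91e-06). The tryptophan-rich sensory protein gene *TSPO* (AT2G47770), whose product binds porphyrins and is known from ABA-treated seeds, had 2725, 1321 and 1940 CPM in untreated seeds, 308, 326 and 287 CPM with KAR2 and 7.11, 9.12 and 7.78 CPM in Ara-1 (-2.73 and -7.99, adjusted p = 0.000322 and 5.93e-06). *BCM2* (-1.83), which attenuates chlorophyll breakdown, and *CLH2* (-1.71), a chlorophyllase gene, were also lower with KAR2. *CYP89A9* and *ACD2*, of the late catabolite steps, had log2 fold changes of -3.76 and -0.84 in Ara-1 against KAR2.
Of those higher, *LIL3:1* (AT4G17600), whose product anchors geranylgeranyl reductase to the membrane, had 2.71, 2.97 and 2.01 CPM in untreated seeds, 18.9, 18.3 and 16.3 CPM with KAR2 and 26.8, 31.2 and 32.4 CPM in Ara-1. *LCAA* (AT5G58250), for another subunit of the cyclase, rose by 1.79 on the log2 scale with KAR2, beside 3.92 for *CRD1*. *SGRL*, a relative of *SGR1*, rose by 2.40 and the heme oxygenase gene *HO2* by 1.53. *BCM1*, which stimulates chlorophyll synthesis, was higher in Ara-1 than in untreated seeds by 3.86. *CLH1* and *VTE5* had no count in untreated seeds. Set against 3 counts summed over the untreated libraries, a floor that covers counting error only, they were at least 23.8-fold and 28.1-fold higher in Ara-1 and at least 7.64-fold and 9.44-fold higher with KAR2. The values with KAR2 rest on 32 and 37 counts over the treated libraries, too few for either gene to be tested against untreated.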

How the data were processed

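RNA of whole seeds was sequenced by the authors as single-end reads of 75 bases from a directional kit. Per the study's methods and the submitters' processing notes, the authors cleaned reads with htStream, aligned these to TAIR10 by HISAT2 2.1.0, removed multi-mapped reads with SAMtools 1.10, and assembled and merged transcripts on Araport11 with StringTie 2.1.3, whose script gave the deposited counts per gene. The sources used here do not give the strand that was counted. Ara-1 reads were mapped to the Col-0 reference, and the part of sequence differences in the Ara-1 values was not tested. The deposited size-factor-normalized values were not used here.

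The 37054 entries were summed to 32830 genes (5 of the 36 had 2 entries), and 1105 entries without a gene, 13.4% to 35.1% of a library's counts, were left out. The 6 libraries of each comparison were tested on their own in R 4.3.3: edgeR 4.0.16 quasi-likelihood F test, TMM, filterByExpr (minimum count 10, minimum total 15), Benjamini-Hochberg over all genes tested, threshold 0.05. Every adjusted p is from this fit unless another tool is named. SE is the absolute log2 fold change divided by the root of F. Levels are CPM scaled by TMM over all 9 libraries, with the SD over 3 replicates, and CPM per kb divides by the union of a gene's exons in TAIR10.1. Isogene shares were compared by exact two-sided permutation tests. Replicates differed by more than counting noise (chi-square per degree of freedom from 11.6 to 128).

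The 36 genes, the 26 further pathway genes and the marker lists were chosen with earlier results of these data known. All 36 genes are named. Of the 26, those past the test with the 4 largest and 4 smallest log2 fold changes in a comparison are named, with the values for other groups beside them. Windows before gene starts were read from the TAIR10.1 genome (RefSeq). Not every such sequence is reported here. Alternatives were DESeq2 1.42.0, scaling by RLE or by library size, a filter of at least 10 counts in every library or none, a fit of all 9 libraries, the replicate number as a block, only the entry with the most counts, unnamed entries in the library total, organelle genes left out, each replicate left out, other lengths for CPM per kb, and, chosen after seeing the data, both libraries numbered 1 left out. The test was tried on simulated counts with known changes.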

Additional observations from a re-analysis of the deposited data

How the results depend on the processing

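The counts of higher and lower genes kept within 1.5 times their values under every alternative, with 1 exception: all 9 libraries in a single fit left 5 genes lower in Ara-1 than with KAR2 (*HEMA2*, *CAO*, *NYC1*, *SGR1* and *PPH*) instead of 10. Scaling by library size only shifted the median log2 fold change of all genes by 0.40 with KAR2 and 0.36 in Ara-1 against untreated, raised the share of higher genes among all calls from 55.5% to 75.8% and from 54.4% to 64.2%, and gave 25 of the 36 higher and 5 lower in each. Correlations of deviations between same-numbered libraries ran from -0.11 to 0.34. The highest was between replicate 2 of Ara-1 and of untreated AtKAI2OE, so that these values do not settle whether replicate numbers pair the samples. The replicate block gave 19 higher and 5 lower with KAR2, 20 and 6 in Ara-1 against untreated, and 17 and 9 in Ara-1 against KAR2. With it *PAO* passed as lower in Ara-1 against untreated (adjusted p = 0.00222), and *PORA* there (adjusted p = 0.0653) and *HO1* in both its comparisons (adjusted p = 0.0739 and 0.0735) did not pass.

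Signs turned only in genes that had not passed, and the cause was not tested. With library size only, log2 fold changes with KAR2 became 0.31 for *GSA1*, 0.10 for *HEMD*, 0.19 for *HEMG2* and 0.36 for *HY2*, and in Ara-1 against untreated 0.10 for *HEMD* and 0.24 for *FC1*. *HY2* with KAR2 became 0.043 with at least 10 counts in every library and 0.016 with the replicate block. *FC2* in Ara-1 against KAR2 became 0.024 with RLE, 0.016 with DESeq2, 0.015 with unnamed entries in the total and 0.033 in the fit of all 9 libraries. With 1 library left out, *FC2* and *HEMD* in Ara-1 against KAR2 ran from -0.070 to 0.058 and from -0.14 to 0.20. In Ara-1 against untreated, *FLU* ran from -0.066 to 0.088, *GSA1* from -0.085 to 0.18 and *HY2* from -0.092 to 0.37. With KAR2, *HY2* ran from -0.28 to 0.18 and *NOL* from -0.16 to 0.89. Left-out libraries further let *GUN4* pass in Ara-1 against KAR2 (adjusted p = 0.0466) and *PORA* with KAR2 (adjusted p = 0.00943, against untreated libraries at 0).

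Depth limits *CHLH*, *GUN4* and *PORA*, with 8 or 9 counts over the untreated libraries. The CPM per kb depend on the length used, and 16 of 108 group values moved by more than 1 SD with the longest transcript. When counts were not divided by length, 9 group means of isogene shares moved by more than 1 SD and 18 did not.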
